A study of Homo sapiens with 18 samples.

Results

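The tubulin genes described here are 3 α-tubulin genes (TUBA1A, TUBA1B and TUBA1C), 6 β-tubulin genes (TUBB, TUBB2A, TUBB2B, TUBB3, TUBB4B and TUBB6) and the γ-tubulin gene TUBG1. They were chosen by name, as genes whose isotype pattern over 0, 4 and 8 h of etoposide was of interest, so their changes over time are given as a description and carry no test. All probes annotated to them were taken, which gave 18 of the 47231 probes on the array and 10 of the 20045 genes with a probe of their own. Of these, 17 probes and all 10 genes passed the filter on dim probes, and the genes were analysed among 12055. The 18 arrays carry RNA of HEK293, a line from human embryonic kidney. In every group endogenous p65, the NF-kB subunit encoded by RELA, was knocked down with siRNA, and the cells carried a lentivirus for an siRNA-resistant p65 with an HA tag. That p65 was S547A in one line (S547A cells) and wild type in the other (wt cells). Cells of each line were left untreated or received etoposide, which traps topoisomerase II on broken DNA, for 4 or 8 h, and each of the 6 groups has 3 arrays. The dose of etoposide and whether a line is 1 clone are not given in the sources used here. No cells that kept their own p65, or that went without the lentivirus, are among these groups.

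Microtubules are polymers of heterodimers of one α- and one β-tubulin, and γ-tubulin sits in the ring complexes that start them. Vertebrate cells draw on several α and β genes, called isotypes, whose proteins mix in one polymer. Class I β-tubulin from TUBB is the general isotype, class III from TUBB3 is characteristic of neurons, and TUBB2A and TUBB2B encode the closely related class II proteins. The α and β mRNAs are also under autoregulation, in which TTC5 binds nascent tubulin chains when free dimers are in excess and the CCR4-NOT complex then degrades the mRNA.

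Levels are normalized log2 intensities of a probe, and each gene is given by its brightest kept probe unless another is named. Levels of different probes were not set against each other. Per array, 35.8% to 39.2% of the probes were detected. Across genes, which are no replicates, the arrays within a group had correlations of 0.982 to 0.989. RELA, measured by 1 probe, was at 8.86 ± 0.20, 10.16 ± 0.13 and 9.69 ± 0.10 (mean ± SD, n = 3) after 0, 4 and 8 h in S547A cells and at 7.80 ± 0.32, 9.43 ± 0.05 and 9.22 ± 0.03 in wt cells. Where this probe lies is not given in the sources used here, and RELA from the lentivirus cannot be told apart from the cells' own. Of 5 genes listed for the HEK293 line all were measured, 4 of them on all arrays, and 4 of 5 fibroblast genes passed the filter too, none of them on all arrays. Of 5 blood genes 1 passed the filter and PTPRC and CD3E were detected on no array. Of 4 endothelial genes 0 passed and CDH5 and VWF were detected on no array.

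The promoters of the 3 β genes that were higher in both lines, and of the 2 that were lower on every S547A array at 8 h, are printed to show what these genes share and do not share upstream. Each window is the 250 bases before an annotated transcript start, from RefSeq on GRCh38.p14, read 5′ to 3′ on the gene's strand. All 10 genes matched, with 15 windows. The windows are TUBB2A at chr6:3157545-3157794 on the minus strand, TUBB2B at chr6:3227654-3227903 on the minus strand, the downstream of 2 starts of TUBB3 at chr16:89923092-89923341, the upstream of 2 starts of TUBB at chr6:30720102-30720351 and TUBB4B at chr9:137241037-137241286, the last 3 on the plus strand. Capitals mark CCAAT on either strand (it reads ATTGG on the other) and the 2 further motifs named after the sequences.
TUBB2A: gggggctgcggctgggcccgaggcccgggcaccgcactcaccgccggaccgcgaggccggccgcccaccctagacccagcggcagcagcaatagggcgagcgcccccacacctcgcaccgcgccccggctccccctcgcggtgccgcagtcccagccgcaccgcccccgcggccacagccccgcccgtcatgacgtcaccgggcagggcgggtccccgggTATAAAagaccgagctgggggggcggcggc
TUBB2B: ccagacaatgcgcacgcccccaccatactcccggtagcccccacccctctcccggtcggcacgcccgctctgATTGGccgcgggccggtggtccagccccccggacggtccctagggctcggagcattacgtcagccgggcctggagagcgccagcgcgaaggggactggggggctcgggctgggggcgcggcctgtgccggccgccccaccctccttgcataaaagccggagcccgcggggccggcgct
TUBB3: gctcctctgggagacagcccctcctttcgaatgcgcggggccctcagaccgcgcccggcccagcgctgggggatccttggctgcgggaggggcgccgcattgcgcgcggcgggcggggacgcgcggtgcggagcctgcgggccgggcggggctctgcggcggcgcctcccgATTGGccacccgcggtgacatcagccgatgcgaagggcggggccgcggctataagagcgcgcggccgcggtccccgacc
TUBB: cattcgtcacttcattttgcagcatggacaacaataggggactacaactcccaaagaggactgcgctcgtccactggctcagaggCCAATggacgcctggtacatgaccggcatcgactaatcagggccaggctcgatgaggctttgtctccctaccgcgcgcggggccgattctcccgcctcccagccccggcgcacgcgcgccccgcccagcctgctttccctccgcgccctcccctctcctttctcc
TUBB4B: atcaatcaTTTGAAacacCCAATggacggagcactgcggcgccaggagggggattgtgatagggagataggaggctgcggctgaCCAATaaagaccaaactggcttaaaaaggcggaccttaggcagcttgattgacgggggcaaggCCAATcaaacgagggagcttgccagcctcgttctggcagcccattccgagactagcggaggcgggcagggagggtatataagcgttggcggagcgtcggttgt

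CCAAT, searched on both strands, was found in 10 of the 15 tubulin windows and for 8 of 10 genes, against 32.0% of 35116 windows of the same length for all genes (37% of genes). TUBB4B has 3 copies, 103, 166 and 232 bases before the start, TUBB has 1 at 165, TUBB2B has 1 at 178 and TUBB3 has 1 at 79. For TUBB and TUBB3 the printed window is the one that holds CCAAT, and the window of the other start holds none. Of the α genes, TUBA1A has 2 copies, TUBA1B has none and TUBA1C has 1 in each of its 3 windows, of which 2 windows overlap and hold the same copy. TUBB2A has no CCAAT in its window and is the only tubulin gene of the 10 with an exact TATAAA, 30 bases before the start, a motif of 10.7% of all windows. Near matches were not counted. Toward the start, the printed windows of TUBB3 and TUBB4B hold TATAAG and that of TUBB2B holds CATAAA. The NF-kB consensus was searched as GGGRNNYYCC (R is A or G, Y is C or T, N is any base) on the gene's strand only. It was found there in 0 of 15 tubulin windows, against 7.46% of all windows, and sites on the other strand were not counted in either. TTTGAA, searched on both strands, was found in 3 of 15, those of TUBB4B and TUBA1C, against 13.3%. No occurrence of one motif overlapped another. These are matches of letters in these windows only. Aligned with each other, the TUBB2A and TUBB2B windows were identical at 149 of 283 columns (52.7%).

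In both lines, TUBB3, TUBB2A and TUBB2B were higher after etoposide on every array than on any untreated array of the line, at 4 h and at 8 h. TUBB was lower at 8 h on every array in both lines, and TUBB4B was lower at 8 h on every array in S547A cells but not in wt cells. With the brightest probes and quantile normalization, the 3 α genes and TUBG1 differed less, with log2 differences from untreated between -0.20 and 0.15. This depended on the scaling and the probe. In S547A cells at 8 h, TUBA1A was at -0.64 and TUBA1C at -0.66 with a common median, beside -0.63 for TUBB. Other probes gave -0.39 for TUBA1C and down to -0.50 for TUBG1 there with quantile normalization. From bulk RNA, a lower share of cells that carry a transcript and less of it per cell cannot be told apart.

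TUBB3, the neuronal class III isotype, had the largest difference of the 10 with background correction. In S547A cells it read 5.45, 5.19 and 5.71 untreated, 6.65, 6.44 and 6.56 at 4 h and 6.42, 6.49 and 6.61 at 8 h. In wt cells it read 5.83, 5.88 and 5.82 untreated, 6.78, 6.75 and 7.15 at 4 h and 7.00, 6.88 and 6.80 at 8 h. The treated arrays lay above all untreated arrays of their line, and the arrays of 4 h and 8 h overlapped in both lines. The log2 difference from untreated was 1.10 at 4 h and 1.06 at 8 h in S547A cells (2.14-fold and 2.08-fold) and 1.05 at both times in wt cells (2.07-fold), each with an SE of 0.14. Among all 12055 genes these stand at percentiles 99.2 and 96.4 in S547A cells and 99.1 and 96.3 in wt cells.

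The TUBB3 probe is dim, with raw intensities of 101 to 229 where the median of all probes ranged from 94.7 to 122 between arrays. It was detected on 17 of 18 arrays, all but replicate 2 of untreated S547A cells. Its size therefore depends on the background step. With no background correction the log2 difference was 0.49 at 4 h and 0.46 at 8 h in S547A cells and 0.53 at both times in wt cells. TUBB2A was then larger at 4 h, at 0.61 in S547A cells and 0.63 in wt cells, as was TUBB2B at 8 h, at 0.53 and 0.57. In wt cells at 8 h TUBB2A was larger than TUBB3 as well, at 0.58. Of 8 neuronal marker genes SYP, SNAP25 and RBFOX3 were not detected on any array and only 3 were measured, 1 of them on all arrays. The summed linear level of those 3 was 137 to 154, 145 to 160 and 117 to 142 at 0, 4 and 8 h in S547A cells and 114 to 135, 142 to 184 and 134 to 142 in wt cells. Their part in the TUBB3 difference was not tested.

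TUBB2A, a class II β isotype, was higher at 4 h and did not go further by 8 h. In S547A cells it read 8.75, 8.41 and 8.66 untreated, 9.38, 9.32 and 9.26 at 4 h and 9.08, 9.18 and 9.10 at 8 h. In wt cells it read 8.34, 8.63 and 8.53 untreated, 9.22, 9.20 and 9.28 at 4 h and 8.99, 9.19 and 9.36 at 8 h. In S547A cells the 8 h arrays lay below all 4 h arrays and above all untreated arrays, and in wt cells the 4 h and 8 h arrays overlapped. The log2 difference from untreated was 0.71 and 0.51 in S547A cells (1.64-fold and 1.42-fold) and 0.74 and 0.68 in wt cells (1.67-fold and 1.61-fold), each with an SE of 0.12.

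TUBB2B, the other class II isotype, was higher by steps instead. In S547A cells it read 12.07, 12.01 and 12.03 untreated, 12.09, 12.31 and 12.24 at 4 h and 12.41, 12.77 and 12.53 at 8 h. In wt cells it read 11.78, 11.95 and 12.01 untreated, 12.16, 12.20 and 12.34 at 4 h and 12.47, 12.46 and 12.56 at 8 h. In both lines the 3 times did not overlap, in the order 0, 4 and 8 h. The log2 difference from untreated was 0.18 and 0.53 in S547A cells (1.13-fold and 1.45-fold) and 0.32 and 0.59 in wt cells, each with an SE of 0.12. Between 4 and 8 h TUBB2B was 0.36 higher in S547A cells and 0.26 higher in wt cells, while TUBB2A was 0.20 lower in S547A cells and 0.05 lower in wt cells. When the arrays were instead scaled to a common median, the TUBB2B values from 4 to 8 h were 0.09 in S547A cells and 0.04 in wt cells, and those from untreated to 8 h were 0.16 and 0.35.

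**Figure D1:**
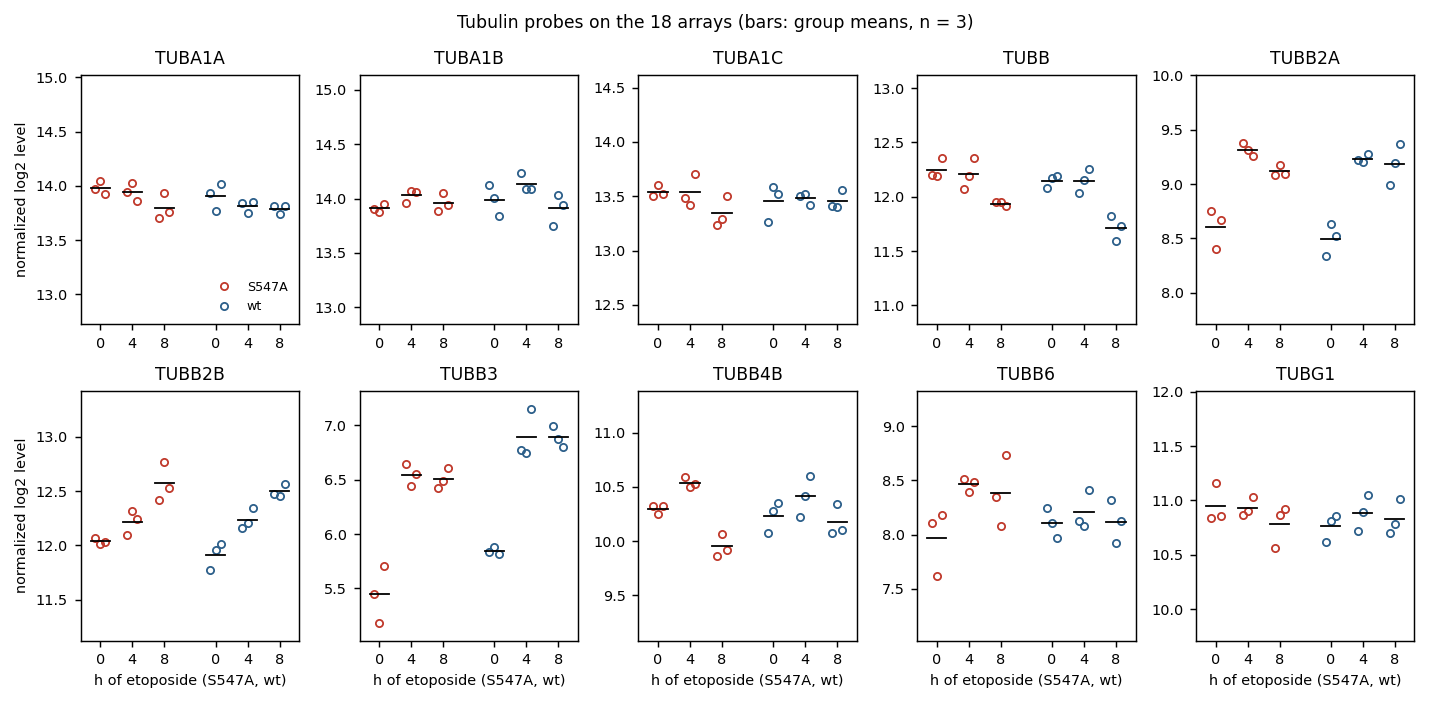
Normalized log2 level (y axis, each panel spanning the same number of log2 units) of the brightest probe of each tubulin gene against hours of etoposide (x axis), with S547A cells at the left and wt cells at the right of each panel. Circles are arrays and bars are means of 3. TUBB3 and TUBB2A stand higher at 4 h and 8 h than at 0 h in both lines, TUBB2B is highest at 8 h, and TUBB is lowest at 8 h.

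TUBB, the class I isotype, was near its untreated level at 4 h and lower at 8 h. In S547A cells it read 12.20, 12.19 and 12.35 untreated, 12.07, 12.19 and 12.35 at 4 h and 11.95, 11.95 and 11.91 at 8 h. The wt arrays read 12.08, 12.17 and 12.19 untreated, 12.03, 12.16 and 12.26 at 4 h and 11.82, 11.60 and 11.73 at 8 h. Untreated and 4 h arrays overlapped in both lines, and the 8 h arrays lay below all of them. The log2 difference of 8 h from untreated was -0.31 in S547A cells (0.806-fold) and -0.43 in wt cells (0.742-fold), each with an SE of 0.11. These stand at percentiles 23.9 and 15.4 among all genes. The other TUBB probe gave -0.65 in S547A cells and -0.31 in wt cells, also without overlap, so which line had the larger difference depended on the probe.

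TUBB4B, the broadly expressed class IV isotype, first stood higher and then lower in S547A cells. It read 10.32, 10.25 and 10.32 untreated, 10.59, 10.50 and 10.53 at 4 h and 9.87, 10.07 and 9.92 at 8 h in S547A cells. In wt cells it read 10.07, 10.28 and 10.35 untreated, 10.23, 10.41 and 10.60 at 4 h and 10.08, 10.34 and 10.11 at 8 h. The 3 times were apart in S547A cells and overlapped in wt cells. The log2 difference from untreated was 0.24 at 4 h and -0.34 at 8 h in S547A cells, and 0.18 and -0.06 in wt cells, each with an SE of 0.12.

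TUBB6, which encodes the class V isotype, was measured by 2 probes that gave different patterns. With the brighter probe S547A cells read 8.11, 7.62 and 8.18 untreated, 8.52, 8.40 and 8.48 at 4 h and 8.35, 8.08 and 8.73 at 8 h. In wt cells that probe read 8.25, 8.11 and 7.96 untreated, 8.13, 8.08 and 8.41 at 4 h and 8.32, 7.92 and 8.12 at 8 h. The 4 h arrays lay above the untreated arrays in S547A cells, and every other comparison of 4 h or 8 h with untreated overlapped. The log2 difference at 4 h and 8 h was 0.50 and 0.42 in S547A cells and 0.10 and 0.01 in wt cells (SE 0.18). With the other probe it was 0.07 and 0.06 in S547A cells and 0.24 and 0.29 in wt cells (SE 0.15), and there the treated wt arrays were the ones that lay above the untreated arrays.

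**Figure D2:**
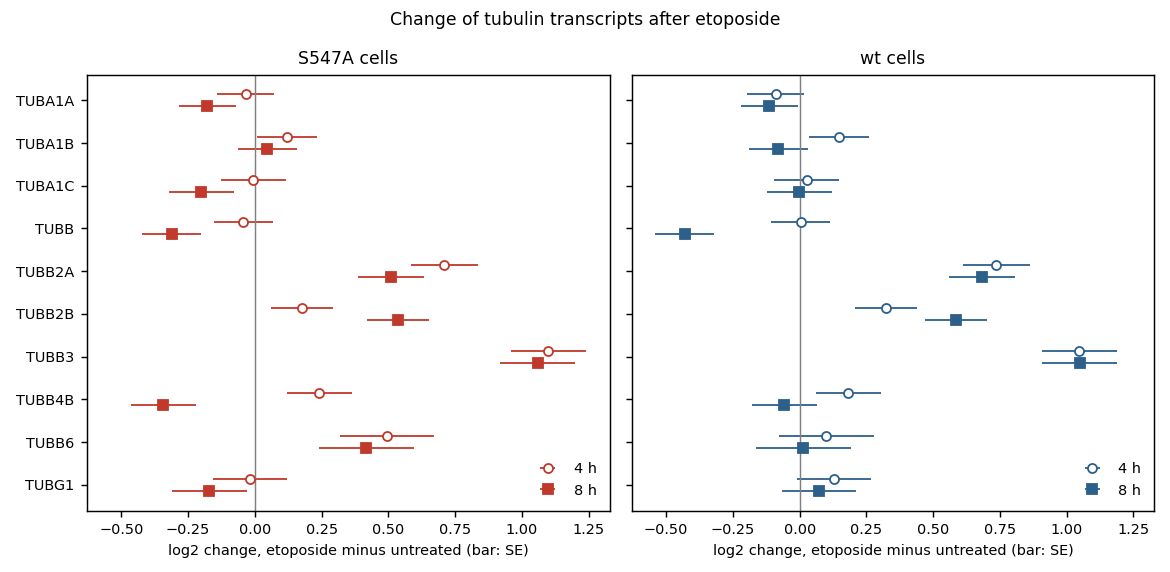
Log2 change from untreated cells (x axis) of the brightest probe of each tubulin gene (rows) at 4 h (open circles) and 8 h (filled squares) of etoposide, in S547A cells (left panel) and wt cells (right panel). Bars are the standard error from the fit of all 18 arrays. TUBB3 lies near 1 in all 4 comparisons, TUBB lies below 0 at 8 h in both panels, and TUBB4B lies below 0 at 8 h in the S547A panel by more than its bar.

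Of the α genes, TUBA1A is known for its abundance in developing neurons, and TUBA1B and TUBA1C are broadly expressed. TUBA1A ranged from 13.70 to 14.05 over the S547A arrays and from 13.74 to 14.01 over the wt arrays. Its log2 difference from untreated was -0.03 at 4 h and -0.18 at 8 h in S547A cells and -0.09 and -0.11 in wt cells (SE 0.11), all overlapping. TUBA1C was at -0.01 and -0.20 in S547A cells and at 0.03 and -0.00097 in wt cells (SE 0.12), all overlapping, and its other probe at 8 h was at -0.39 and -0.19, with no overlap in either line. TUBA1B read 13.91, 13.88 and 13.95 in untreated S547A cells, 13.96, 14.07 and 14.06 at 4 h and 13.89, 14.05 and 13.94 at 8 h. The wt arrays read 14.12, 14.00 and 13.84 untreated, 14.23, 14.09 and 14.09 at 4 h and 13.75, 14.03 and 13.94 at 8 h. The 4 h arrays lay above the untreated arrays in S547A cells and above the 8 h arrays in wt cells. The TUBA1B differences from untreated in S547A cells, 0.12 at 4 h and 0.05 at 8 h, turned to -0.08 and -0.37 after scaling to a common median.

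TUBG1, the γ-tubulin gene, had 5 probes, of which 1 was detected on 1 array and was left out. With the brightest probe it ranged from 10.56 to 11.16 in S547A cells and from 10.62 to 11.05 in wt cells, and untreated and treated arrays overlapped in every comparison. The other 3 probes gave log2 differences at 8 h of -0.18, -0.50 and -0.41 in S547A cells and -0.42, 0.20 and -0.20 in wt cells, beside -0.17 and 0.07 with the brightest. The 4 probes thus shared a sign at 8 h in S547A cells and did not in wt cells.

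**Figure D3:**
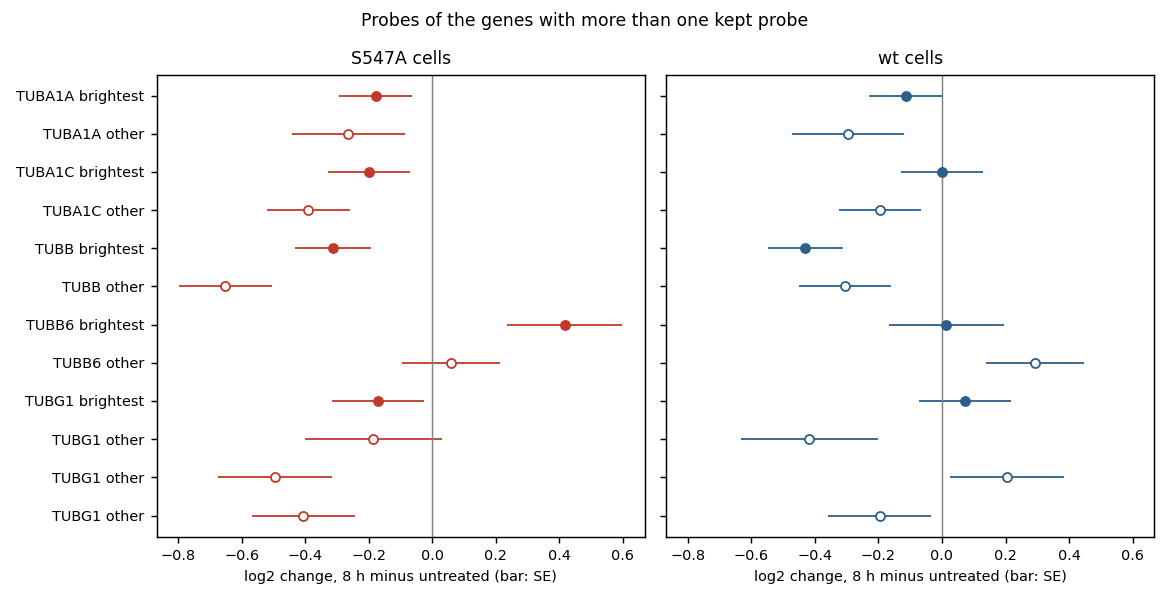
Log2 change at 8 h of etoposide from untreated cells (x axis) of every kept probe of the tubulin genes with more than 1 kept probe (rows), in S547A cells (left) and wt cells (right), with the standard error as bars. The TUBB and TUBA1A probes lie on one side of 0 in both panels, while the TUBG1 probes lie on both sides in wt cells.

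The probes are named through the platform annotation, and their positions in the transcripts are not given in the sources used here. Signal that near-identical tubulin transcripts or pseudogenes may share on a probe cannot be told apart, which leaves the split between TUBA1A, TUBA1B and TUBA1C and between TUBB2A and TUBB2B uncertain. With quantile normalization TUBB2A and TUBB2B gave unlike courses between 4 and 8 h. The TUBB2B values between these times were smaller with a common median.

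At a limma adjusted p under 0.05, 2 of 10 tubulin genes were past the threshold at 4 h in S547A cells (9.51% of all genes) and 2 of 10 in wt cells (10.4%), in both cases TUBB3 and TUBB2A. At 8 h these were 5 of 10 in S547A cells (30.5% of all genes), TUBB3, TUBB2A and TUBB2B higher and TUBB and TUBB4B lower, and 4 of 10 in wt cells (29.7%), the same without TUBB4B. The members were chosen on these comparisons, so the counts are a description. The 5 of S547A cells became 3 when replicate 1, 2 or 3 of the untreated or replicate 1 or 3 of the 8 h S547A arrays was left out, and without 8 h replicate 2 the 5 held TUBB6, higher, in place of TUBB. TUBB was thus past the threshold in none of the 6 fits that left out 1 of these arrays, nor in the fit of only the groups compared. With arrays put on a common median, 7 were past it in S547A cells at 8 h, with TUBA1A, TUBA1B and TUBA1C lower added and TUBB2B dropped, while the wt genes and the 4 h genes were those given above. Arrays did not overlap for 6 of 10 genes at 4 h in S547A cells (25.5% of all genes) and 3 of 10 in wt cells (30.2%), and at 8 h for 5 of 10 (42%) and 4 of 10 (44%). The median log2 difference over the 10 genes at 4 and 8 h was 0.15 and -0.06 in S547A cells and 0.14 and 0.01 in wt cells, beside medians of all genes within 0.01 of 0.

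Between 8 h and 4 h, 2 of 10 tubulin genes were past the threshold in S547A cells (15.4% of all genes), TUBB2B at 0.36 and TUBB4B at -0.58, and 1 of 10 in wt cells (13.4%), TUBB at -0.43. Here too the members were chosen on their pattern over these times, so the counts are a description and no test. The S547A count was 1 without replicate 1 or 3 of 4 h or replicate 2 or 3 of 8 h, and the wt count was 0 without replicate 3 of 4 h or replicate 2 of 8 h. With a common median the S547A genes were TUBB4B, TUBB and TUBA1C, all lower, and the wt genes TUBB and TUBA1B, both lower. TUBB was at -0.27 in S547A cells, TUBB4B at -0.24 in wt cells and TUBB3 at -0.04 in S547A cells and 0.00 in wt cells.

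Quantile normalization gives all arrays one distribution of intensities, and scaling the arrays to a common median moved the tubulin genes with bright probes. At 8 h the median of all genes was then -0.10 in S547A cells and -0.04 in wt cells, and the genes called in S547A cells split into 1724 higher and 2294 lower, against 1945 higher and 1729 lower with quantile normalization. In S547A cells TUBA1A was at -0.64, TUBA1C at -0.66 and TUBB at -0.63, and in wt cells these were at -0.29, -0.25 and -0.61. TUBB3 was at 0.93 in S547A cells and 1.08 in wt cells, and TUBB2A at 0.53 and 0.72. The sign at 8 h was thus the same under both scalings for TUBB3, TUBB2A, TUBB2B, TUBB and TUBB4B in both lines, while TUBA1B turned in S547A cells.

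**Figure D4:**
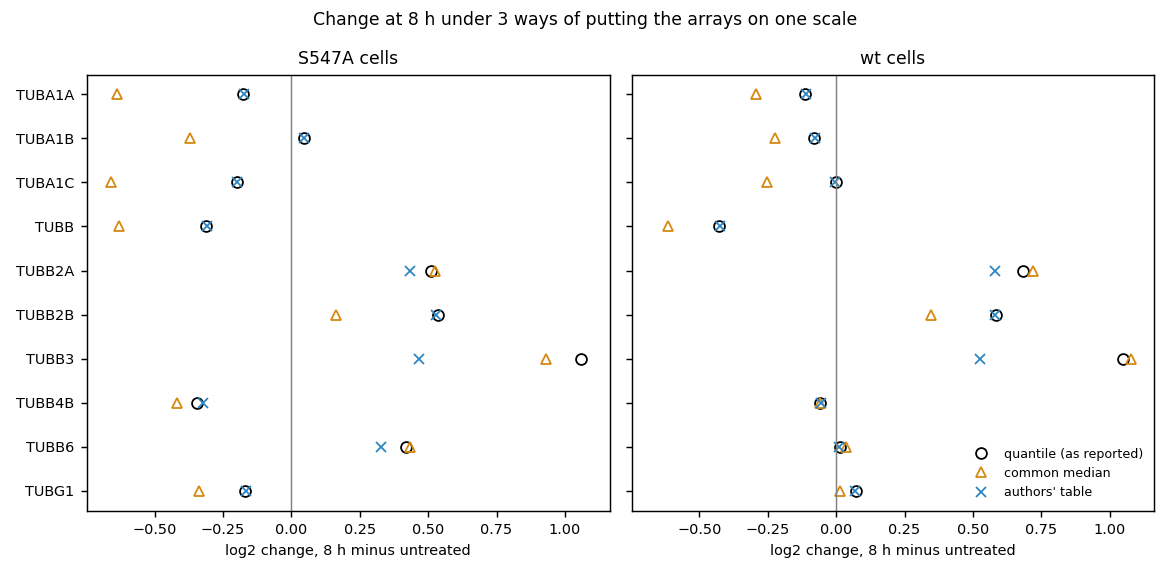
Log2 change at 8 h of etoposide from untreated cells (x axis) of each tubulin gene (rows) under quantile normalization (circles), a common median (triangles) or the authors' table (crosses), in S547A cells (left) and wt cells (right). TUBB3 and TUBB2A stay to the right of 0 and TUBB to the left under all 3, and in the S547A panel each of TUBA1A, TUBA1B and TUBA1C has its lowest value with the common median.

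The comparison of the lines asks whether the S547A cells hold other tubulin levels, or respond otherwise, than the wt cells. RELA also read higher in S547A than in wt cells, at 8.86 and 7.80 untreated. At 4 h it read 10.16 and 9.43, and at 8 h 9.69 and 9.22. The form of p65, the RELA level and other differences between the lines cannot be told apart here. The genes were chosen for their pattern over time in both lines, with earlier results of these data known. This was taken to use the time differences, and with them the difference in response. The difference between the lines at a given time was tested. No tubulin gene passed the limma test in untreated cells, at 4 h or at 8 h (0 of 10 each, with 0.0415%, 0.083% and 0.108% of all genes called). An unadjusted p under 0.05 was reached by 1 of 10 in each, TUBB3, against 6.19%, 5.04% and 6.55% of all genes.

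TUBB3 was lower in S547A cells than in wt cells on every array at each time. The S547A minus wt difference was -0.40 in untreated cells (95% interval -0.69 to -0.10, limma adjusted p = 0.727), -0.35 at 4 h (-0.64 to -0.05, adjusted p = 0.942) and -0.38 at 8 h (-0.68 to -0.09, adjusted p = 0.694). The unadjusted limma p-values were 0.0119, 0.0253 and 0.0143. The difference thus fails the correction over all genes at each time while its own interval leaves out 0. Over all alternatives it ranged from -0.53 to -0.15 untreated, from -0.42 to -0.20 at 4 h and from -0.44 to -0.21 at 8 h, with the smallest size under no background correction in each case, and the lowest adjusted p was 0.426, 0.668 and 0.461.

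With the brightest probes the other tubulin genes were closer between the lines. Arrays did not overlap for 3 of 10 genes in untreated cells (12.3% of all genes), 3 of 10 at 4 h (8.54%) and 3 of 10 at 8 h (12.4%), TUBB3 included. Besides TUBB3, untreated S547A cells were higher in TUBB (0.10, interval -0.13 to 0.34) and TUBB2B (0.12, -0.12 to 0.37), at 4 h higher in TUBA1A (0.13, -0.10 to 0.36) and lower in TUBA1B (-0.10, -0.34 to 0.13), and at 8 h higher in TUBB (0.22, -0.01 to 0.45) and lower in TUBB4B (-0.22, -0.48 to 0.04). The other TUBB probe gave -0.11 at 8 h. One of the other TUBG1 probes was lower in S547A cells on every array at 8 h, at -0.52 (SE 0.18, limma adjusted p over all probes 0.714), where the brightest gave -0.05. TUBB2A differed by 0.11 untreated, 0.08 at 4 h and -0.06 at 8 h. Over the 10 genes the lowest limit of a 95% interval was -0.69 (TUBB3) and the highest 0.48 (TUBG1) in untreated cells. At 4 h these limits were -0.64 (TUBB3) and 0.63 (TUBB6), and at 8 h -0.68 (TUBB3) and 0.64 (TUBB6). The interval of each gene is narrower than these ranges, and differences within it are left possible by these arrays.

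**Figure D5:**
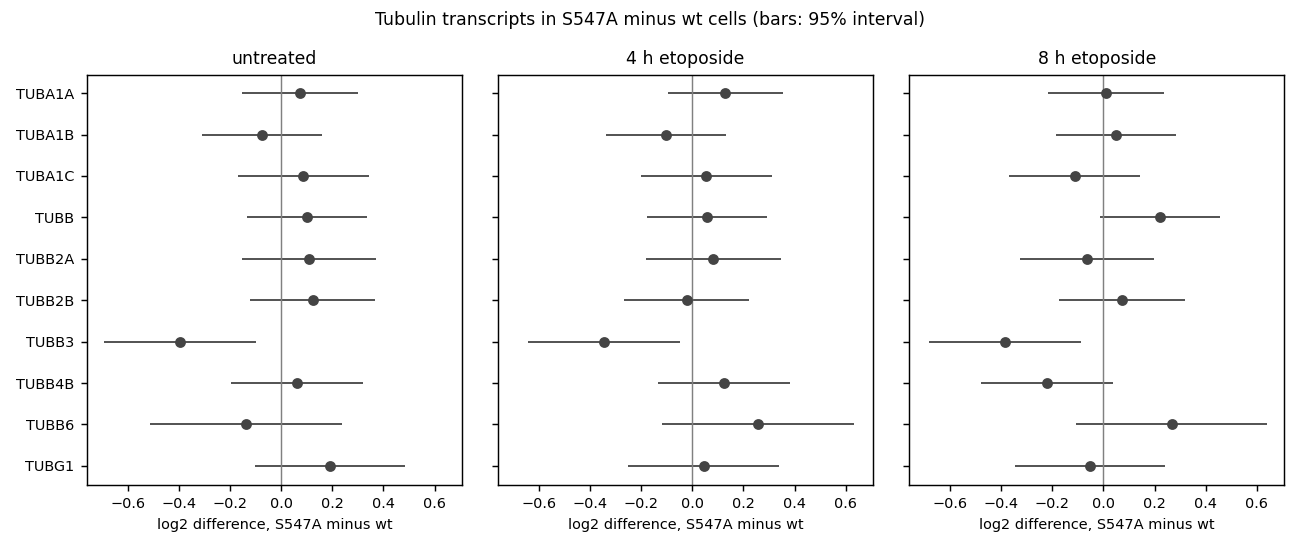
Log2 difference of S547A minus wt cells (x axis) for the brightest probe of each tubulin gene (rows) in untreated cells and after 4 h and 8 h of etoposide (panels). Points are the fitted differences and bars their 95% intervals. TUBB3 lies below 0 with its whole interval in all 3 panels and the intervals of the other 9 genes include 0.

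The difference in response to etoposide between the lines is made of the time differences by which the members were chosen. Its values for the members are therefore a description and no independent test. For it, 0 of 10 tubulin genes were past the threshold at 4 h and 0 of 10 at 8 h (0.0166% and 0.0249% of all genes). An unadjusted limma p under 0.05 was reached by 0 of 10 at either time (5.59% and 7.44% of all genes). For TUBB3 the S547A response minus the wt response was 0.05 at 4 h (95% interval -0.37 to 0.47) and 0.01 at 8 h (-0.41 to 0.43). With the brightest probes the largest estimates were those of TUBB6, 0.40 at 4 h (-0.13 to 0.92, limma adjusted p = 0.955) and 0.40 at 8 h (-0.13 to 0.93, adjusted p = 0.735). With the other TUBB6 probe they were -0.17 and -0.23. Other probes of TUBG1 gave larger sizes, -0.45 (SE 0.23) at 4 h with one and -0.70 (SE 0.25) at 8 h with another (limma adjusted p over all probes 0.929 and 0.688), where the brightest TUBG1 probe gave -0.15 and -0.24. TUBB4B was at -0.29 at 8 h (-0.65 to 0.08, adjusted p = 0.732). These intervals do not show that the lines respond alike.

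Genes that build, fold, modify or bind tubulin were counted from lists. The lists were drawn up by function with earlier results of these data known, and their genes were tested. At 4 h most lists had at most 1 gene called in either line, and at most 2 when any 1 array was left out. The list of microtubule-associated and severing proteins had 1 of 21 higher and 2 lower in S547A cells and 1 higher and 5 lower in wt cells, where 9.51% and 10.4% of all genes were called. MAP1S, which binds microtubules and autophagy components, rose by 0.63 in S547A cells (limma adjusted p = 0.00472) and 1.08 in wt cells (adjusted p = 4.12e-05). MAP7, which recruits kinesin to microtubules, fell by 0.80 in wt cells (adjusted p = 0.000214), and in S547A cells it was at -0.61, a call lost in the fit of only the groups compared. SCAPER, which acts with TTC5 in the decay of tubulin mRNA, fell by 1.04 in wt cells at 4 h (adjusted p = 0.00384) and rose by 0.96 between 4 and 8 h (adjusted p = 0.00647), with means of 6.80, 5.76 and 6.73 at 0, 4 and 8 h. Over the alternatives these SCAPER differences ranged from -1.13 to -0.50 and from 0.47 to 1.13.

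At 8 h, 30.5% of all genes were called in S547A cells and 29.7% in wt cells. The list counts at 8 h stand beside these shares. Of 13 further tubulin genes 6 passed the filter, of which 2 rose at 8 h in S547A cells and 1 in wt cells. TUBG2, the second γ-tubulin gene, rose by 0.78 in S547A cells and 0.88 in wt cells (limma adjusted p = 0.000471 and 0.000168), beside -0.17 and 0.07 for TUBG1. TUBE1, for ε-tubulin, was the other one in S547A cells, at 0.48, and it was no longer called when untreated replicate 1 or 3 or any 8 h replicate of S547A cells was left out. Among 9 measured genes of the γ-tubulin ring complex 3 rose and 2 fell in S547A cells and 1 rose and 1 fell in wt cells. MZT1, a small subunit of the complex, fell by 0.48 in S547A cells and 0.56 in wt cells (adjusted p = 0.00383 and 0.00114). The S547A count of 5 was 3 without untreated replicate 1 or 8 h replicate 1 and 2 without untreated replicate 2 or 3. The wt count of 2 was 1 without untreated replicate 2, 8 h replicate 1 or 8 h replicate 3.

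The folding list holds the CCT chaperonin, prefoldin and the tubulin cofactors. Of its genes, 6 of 20 fell and 0 rose in S547A cells at 8 h (30.5% of all genes called). In wt cells 4 fell and 2 rose (29.7%). ARL2, a GTPase that works with cofactor D, fell by 0.61 in S547A cells and 0.52 in wt cells (limma adjusted p = 0.00293 and 0.00828). TBCD, cofactor D itself, fell by 0.83 in S547A cells (adjusted p = 0.00233) and by 0.60 in wt cells (adjusted p = 0.0198), the second lost without untreated replicate 3 or 8 h replicate 2 or 3. TBCC, the cofactor that drives GTP hydrolysis on β-tubulin, rose by 0.95 in wt cells (adjusted p = 0.000242). The wt count of 6 was 3 without untreated replicate 3 or without 8 h replicate 3.

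The list of tubulin mRNA autoregulation holds TTC5 and SCAPER with subunits of CCR4-NOT. Of its 11 measured genes, 4 rose in S547A cells at 8 h (30.5% of all genes called) and 1 rose in wt cells (29.7%). CNOT3 rose by 0.86 in S547A cells and 1.16 in wt cells (limma adjusted p = 0.00273 and 0.000232). The others in S547A cells were CNOT8 at 0.56, CNOT11 at 0.45 and CNOT10 at 0.44, each lost under at least 1 alternative, and the count of 4 was 2 without replicate 1 or without replicate 3 of 8 h. Among 16 measured modifying enzymes 1 rose and 4 fell in S547A cells and 1 rose and 1 fell in wt cells, beside the same shares of all genes. HDAC6, a tubulin deacetylase, and AGBL5, a carboxypeptidase that trims glutamates, fell by 0.79 and 0.74 in S547A cells (adjusted p = 0.00909 and 0.00236). TTLL7, a polyglutamylase, rose by 0.87 in wt cells (adjusted p = 0.00798). The size of these differences depended on the processing. Over the alternatives TTLL7 ranged from 0.36 to 0.95 (means of 5.38 untreated and 6.25 at 8 h). HDAC6 ranged from -0.88 to -0.37 (means of 6.54 and 5.75). The S547A count of 5 was 3 without untreated replicate 3 and 2 without 8 h replicate 1, and the wt count of 2 was 1 without untreated replicate 1 or 8 h replicate 2.

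Of 21 microtubule-associated and severing proteins, 3 rose and 2 fell in S547A cells at 8 h (30.5% of all genes called). In wt cells 3 rose and 4 fell (29.7%). KATNA1, the catalytic subunit of the severing enzyme katanin, rose by 0.66 in S547A cells and 0.73 in wt cells (limma adjusted p = 0.000364 and 0.000164). MAP1S rose by 0.69 and 0.82 (adjusted p = 0.000654 and 0.00015) and MAP7 fell by 1.03 and 1.12 (adjusted p = 4.47e-06 and 1.71e-06). The S547A count of 5 was 3 without 8 h replicate 2, and the wt count of 7 was 4 without untreated replicate 1 and 3 without 8 h replicate 3. In the actin and intermediate filament list, 6 of 16 genes fell and 1 rose in S547A cells and 3 fell and 0 rose in wt cells. These too stand beside the same shares of all genes. TPM1, a tropomyosin of actin filaments, fell by 1.40 in S547A cells and 1.23 in wt cells (adjusted p = 7.53e-06 and 2.89e-05). ACTN4, an actin cross-linker, fell by 1.02 in wt cells (adjusted p = 0.00594) and by 0.80 in S547A cells (adjusted p = 0.0252). Its S547A call was lost without replicate 1 or 3 of the untreated or of the 8 h arrays. That list moved with the settings, to 4 in S547A cells without untreated replicate 3 and to 5 in wt cells without 8 h replicate 3, and to 12 and 7 with a common median. In wt cells it was 9 with the authors' table and 8 with the mean of a gene's probes.

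The median log2 changes of these 7 lists at 8 h lay between -0.29 and 0.11 in S547A cells and between -0.34 and 0.18 in wt cells, with medians of all genes of -0.01 and -0.00312. The shares of genes called, 6 of 20 for the folding list in both lines for example, stand beside 30.5% and 29.7% of all genes. In none of the 7 lists was a gene called between the lines at any time or for a difference in response. A gene named here for a single line is therefore not shown to respond otherwise in the other.

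The genes whose levels over the 18 arrays were most like those of TUBB3 were TRAPPC2B (Pearson r = 0.935), SPATA2L (0.932), ZNF513 (0.922), ATF3, a stress-induced transcription factor (0.921), and BRF2, a factor of RNA polymerase III (0.921). Their 8 h differences ranged from 0.74 for ZNF513 to 2.22 for ATF3 in S547A cells and from 0.57 for ZNF513 to 2.36 for ATF3 in wt cells, beside 1.06 and 1.05 for TUBB3. Most like TUBB were DPYSL2, which encodes a tubulin-binding protein (r = 0.913), FASN, fatty acid synthase (0.885), LSS, lanosterol synthase (0.879), PAM, a peptide-amidating enzyme (0.876), and DAZAP2 (0.875), with 8 h differences from -0.93 to -0.47 in S547A cells and from -1.02 to -0.58 in wt cells. All points of these correlations share the arrays and the 3 times of treatment, and they are a description.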

How the data were processed

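Per the file headers, the deposited array table gives a linear intensity and a detection p-value for each probe on each array. The submitters' processing notes name GenomeStudio without its version. A second deposited table holds intensities that the authors had normalized, and it was used as an alternative. Each column carries a sample number that the labels also give.

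The neqc function of limma 3.58.1 (R 4.3.3) corrected the deposited intensities for background, using the detection p-values, added an offset of 16, quantile-normalized them and took log2. A probe was kept if its detection p was under 0.05 on 3 or more arrays (22161 probes), and the brightest kept probe with 1 symbol stood for a gene. Symbols came from the platform annotation, where 30112 probes had 1 symbol, 8 had several and 17111 had none. One limma fit of 6 group means to 18 arrays (12 residual degrees of freedom), with p-values adjusted over 12055 genes by Benjamini-Hochberg, gave all comparisons, two-sided, and genes with an adjusted p under 0.05 were called. The fit was also run on simulated data in which every gene and array varied independently. That run cannot speak to deviations that arrays share. The series text describes independent triplicates, and the number of arrays limits the precision. The files give no slide or scan date.

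Besides the tubulin genes, up to 2 called genes per list, direction and comparison were eligible to be named, and all where a list had 5 or fewer. Of these, mainly those called under every alternative are given. The 5 genes most like TUBB3 and TUBB, the members with the largest mean difference at 8 h in each direction, were ranked by Pearson r. The members and lists were chosen with earlier results of these data known. Promoters came from RefSeq (GRCh38.p14) and were searched and aligned with Python 3.11.15 and Biopython 1.88. Alternatives were the authors' table, no background correction, an offset of 50, a common median, 2 other probe filters, the mean of a gene's probes, a replicate block, only the groups compared, and leaving out each array in turn.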

Additional observations from a re-analysis of the deposited data

How the results depend on the processing

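No tubulin gene was called between the lines, or for a difference in response, under any alternative run. Of 894 recomputed values of the tubulin genes over time, 849 kept their sign and 855 moved by less than the spread between arrays. Of 76 results on listed genes, 31 kept their call under every alternative and 45 lost it under at least 1, and VIM in S547A cells at 8 h turned from 0.36 to -0.022 with a common median.

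Counts of genes called moved by over 1.5 times in these cases. Fitting only the groups compared gave 672 genes in S547A cells and 1066 in wt cells at 8 h against 4 h (1857 and 1617 with all arrays), and 455 in S547A cells at 4 h (1146). Between the lines in untreated cells (5 genes) the count was 3 with the authors' table, with no background correction or with probes detected on all arrays, 1 with the mean of a gene's probes and 0 with only the groups compared. At 4 h (10 genes) it was 1 with probes detected on all arrays and 0 with only the groups compared. At 8 h (13 genes) it was 23 with the authors' table or no background correction, 22 with an offset of 50, 3 with probes detected on all arrays and 6 with only the groups compared. The difference in response at 4 h (2 genes) went to 4 with the authors' table or no background correction, 5 with an offset of 50, 1 with a common median, the mean of a gene's probes or only the groups compared, and 0 with probes detected on all arrays. At 8 h (3 genes) it went to 7 with an offset of 50, 5 with only the groups compared and 0 with a common median or probes detected on all arrays. The cause was not tested, except that fits of only the groups compared rest on fewer arrays.

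Without 1 array, genes called at 4 h numbered 711 to 1028 in S547A cells (1146) and 849 to 969 in wt cells (1256), at 8 h 3064 to 3255 (3674) and 2919 to 3019 (3583), and from 4 to 8 h 1311 to 1697 (1857) and 936 to 1121 (1617). Between the lines they numbered 0 to 3 untreated, 4 to 10 at 4 h and 5 to 9 at 8 h, and for the response 2 to 3 at 4 h and 0 to 4 at 8 h.

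With the replicate number as a block, 1 gene was called between untreated lines against 5, and the tubulin genes called became 3 of 10 at 4 h and 6 of 10 at 8 h in S547A cells. Deviations of arrays of one number correlated with r from -0.0756 to 0.213 (median 0.0731, 14 of 45 pairs over 0.1). Those of arrays of different numbers had r from -0.237 to 0.105 (median -0.0369). In all, 14 of 18 arrays correlated best with their own number, a hint from the data and not from the design. With the block, genes called at 8 h were 3918 in S547A cells and 3830 in wt cells, against 3674 and 3583. The labels do not say that equal numbers belong together, so the main fit left the number out. Any deviation that arrays of one number share stays in its spread.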
